A study of Mus musculus with 6 samples.

Results

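The phosphatidylinositol signalling genes described here are the 90 genes that the deposited tables assign to the map of the phosphatidylinositol signalling system and that hold at least 10 counts summed over all libraries, of 56362 features in all. The map took in 97 features, of which Plcg2 and Inpp5d were left out by name and 5 fell under 10 summed counts. The members were chosen by that annotation and by the summed count, with earlier results of these data known. Just outside the count limit stood an unnamed assembled feature with 6.99 summed counts and Calml3 with 1, while Plcz1, Calm4 and Calm5 had 0. Just inside stood Dgkk with 10, Ip6k3 with 25 and Dgki with 30. By role the 90 genes comprised 42 kinases, 26 phosphatases, 9 phospholipases C, 10 genes of the calcium and protein kinase C arm and 3 genes of phosphatidylinositol synthesis.

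Phosphatidylinositol is a membrane lipid whose inositol ring kinases and phosphatases decorate with phosphates at different positions, and the resulting phosphoinositides mark membranes and recruit proteins. Phospholipase C cuts phosphatidylinositol bisphosphate into diacylglycerol, which activates protein kinase C, and inositol trisphosphate, which opens calcium channels of the endoplasmic reticulum. Some phosphoinositide 3-kinases add the phosphate that recruits AKT. In the intestine this system serves epithelial secretion, smooth muscle contraction and growth factor responses, and in mast cells it lies downstream of the IgE receptor.

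RNA was sequenced from intestine of BALB/c mice, in 3 wild type mice and in 3 mice of the genotype FC, an FcεRIα knockout that lacks the alpha chain of the high-affinity IgE receptor. Each library came from 1 mouse. The title of the series names epithelial cells where the tissue label gives intestine, and both groups carry the letters DSS in their sample titles, which the labels do not expand. The sources used here do not give age, sex or the way the allele was made. The comparison asks how the genes differ between knockout and wild type gut.

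Libraries held 19031833 to 23092382 counts, of which the members took 0.609% to 0.841%. The targeted gene Fcer1a had 0, 10 and 18 counts in wild type mice 1, 2 and 3, while knockout mice had 1, 0 and 0, so it did not check the label of wild type library 1. That library stood apart from the others of its group. The mitochondrial transcript mt-Co1 took 6.83% of its counts against 1.45% to 2.28% in the other 5 libraries. The chi-square per degree of freedom of its counts was 247 and 237 against wild type libraries 2 and 3, which differed from each other by 45.4. Epithelial markers were present, with Epcam at 1220 to 2274 CPM (read counts relative to library size, after TMM scaling) and Krt8 at 3967 to 8103 CPM. All 10 fibroblast and matrix markers and all 10 smooth muscle markers were also detected, with summed levels of 440 CPM and 388 CPM in wild type library 1 and of 2951 and 3962 CPM, and 2661 and 1794 CPM, in wild type libraries 2 and 3. The knockout libraries held 588, 2420 and 1649 CPM of the fibroblast markers and 1580, 1634 and 1636 CPM of the smooth muscle markers. In RNA from whole tissue, fewer cells of a type and less RNA per cell cannot be told apart.

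The promoter windows of Plcb3, Itpr3 and Itpka are shown because these genes act in sequence on inositol trisphosphate, as the enzyme that makes it, the channel that it opens and a kinase that converts it, and because each was higher in every knockout library than in every wild type library. Each window is the 250 bases before the transcript start, from RefSeq on GRCm38.p6, printed along the gene's strand, with capitals on matches of either strand to GGGCGG (a GC box) and to GAAA followed by any 2 bases and GAAA (the core of an interferon-stimulated response element).
Plcb3, chr19:6969815-6970064, minus strand: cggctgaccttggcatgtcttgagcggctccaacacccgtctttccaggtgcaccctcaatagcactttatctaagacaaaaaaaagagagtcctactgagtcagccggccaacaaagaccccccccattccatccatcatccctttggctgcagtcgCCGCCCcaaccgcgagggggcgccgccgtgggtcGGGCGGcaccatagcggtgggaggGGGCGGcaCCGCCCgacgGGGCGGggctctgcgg
Itpr3, chr17:27057054-27057303, plus strand: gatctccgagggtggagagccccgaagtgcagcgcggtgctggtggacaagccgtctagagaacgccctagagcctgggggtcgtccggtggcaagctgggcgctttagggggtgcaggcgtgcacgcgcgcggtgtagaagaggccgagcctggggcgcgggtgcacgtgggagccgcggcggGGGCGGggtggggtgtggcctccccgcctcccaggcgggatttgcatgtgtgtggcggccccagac
Itpka, chr2:119742087-119742336, plus strand: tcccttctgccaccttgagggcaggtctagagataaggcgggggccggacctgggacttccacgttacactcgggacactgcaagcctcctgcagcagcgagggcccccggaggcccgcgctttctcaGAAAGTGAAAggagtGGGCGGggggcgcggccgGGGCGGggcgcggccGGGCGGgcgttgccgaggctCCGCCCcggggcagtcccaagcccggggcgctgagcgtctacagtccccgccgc

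GC boxes were frequent in the members' windows. Plcb3 held 5, Itpr3 held 1 and Itpka held 4, and the G and C content of the windows was 64.4%, 72% and 72.8%. Over the 74 members with a window in the table, 67.3% of 104 windows held a GC box, against 32.7% of all 32851 windows. All windows were not limited by counts, as the members were, and 1 gene could hold several windows. Whether the difference goes with expression level was not tested. The interferon-stimulated response element core was searched for after the Itpka sequence had been seen. It stood once in the Itpka window, starting 122 bases before the transcript start, and in 2.98% of all windows. Plcd3 was the other member with a match, so that 1.92% of the members' windows held it. The remaining motifs, searched on both strands, were TTCNNNGAA (a STAT site core) in 8.65% of the members' and 7.02% of all windows, CACGTG (an E-box) in 10.6% and 6.02%, and CAAAGTCCA (an HNF4 site) in 0% and 0.384%. In the Itpka window the TTCNNNGAA match shared 3 bases with the interferon-stimulated response element core. A match describes letters only.

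Of the 90 members, 86 had enough counts for the test (edgeR's quasi-likelihood test on 16732 genes), and none differed between genotypes at a Benjamini-Hochberg adjusted p under 0.05, as was so for 0% of all genes tested. The lowest edgeR adjusted p among members was 0.684. At an unadjusted p under 0.05, 7 members were higher in knockout (Itpr3, Prkca, Ppip5k1, Itpka, Ip6k1, Pi4kb and Plcb3) and 1 was lower (Inpp5e). These made 9.30% of the members against 6.84% of all genes, of which 4.54% were higher and 2.3% lower. DESeq2 called 2 members, Itpka (adjusted p = 0.0102) and Ppip5k1 (adjusted p = 0.0182), where it called 0.759% of all genes (0.514% higher), and limma-voom called 0 members and 0.012% of all genes. Itpr3, Ppip5k1 and Itpka had an unadjusted p under 0.05 in all 15 alternative fits and scalings, the 6 fits that each left out 1 library among them. These were the members of smallest p, and the share of all genes that passed in all 15 was not counted. For each of them the highest Benjamini-Hochberg adjusted p among the 15 was 0.9998.

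The sign of the difference was mostly positive. Log2 fold changes, taken as knockout minus wild type throughout, were above 0 in 63 of 86 members, 73.3%, against 44.2% of all genes. With no scaling factors 54 of the 86 were above 0, and with upper quartile factors 56. The median over all genes was then -0.13 and -0.11. With TMM scaling the median over members was 0.22, beside -0.05 over all genes tested. In 16 members every knockout library lay above every wild type library, and in 2 every knockout library lay below. These were 18.6% and 2.33% of the members, beside 8.73% and 4.27% of all genes. With upper quartile factors the counts were 8 and 4, or 9.30% and 4.65% of the members. Over all genes that scaling turned the split, to 5.80% higher and 6.63% lower. At an unadjusted p under 0.05 the member counts were then 6 and 2, where 6.29% of all genes passed.

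Single libraries moved these counts. Without wild type library 1, 19 members were higher and 6 lower at an unadjusted p under 0.05, but all genes moved with them, to 25.1% beside 28.7% of the members. Without knockout library 1 the counts were 3 and 0, where 2.35% of all genes passed. Without knockout library 2 they were 3 and 1 (3.11% of all genes), and without knockout library 3 they were 8 and 0 (5.72%). Without wild type library 2 they were 6 and 0 (3.67%), and without wild type library 3 they were 6 and 2 (4.99%). Members with every knockout library higher numbered 31 without wild type library 1, 34 without knockout library 3 and 24 without wild type library 3, where 22.7%, 13.2% and 11.9% of all genes did the same. Every knockout library was lower in 18.4%, 3.45% and 5.81% of the members in those fits, beside 24.6%, 10.6% and 9.81% of all genes. Without knockout library 1, knockout library 2 and wild type library 2, every knockout library was higher in 16.09%, 17.24% and 20.93% of the members. The shares of all genes were 7.923%, 9.314% and 11.04%. Lower were 3.448%, 9.195% and 2.326% of the members, beside 8.166%, 8.692% and 6.179% of all genes. With a library left out, groups separate more easily, so these shares do not compare directly with those of all 6 libraries.

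**Figure D1:**
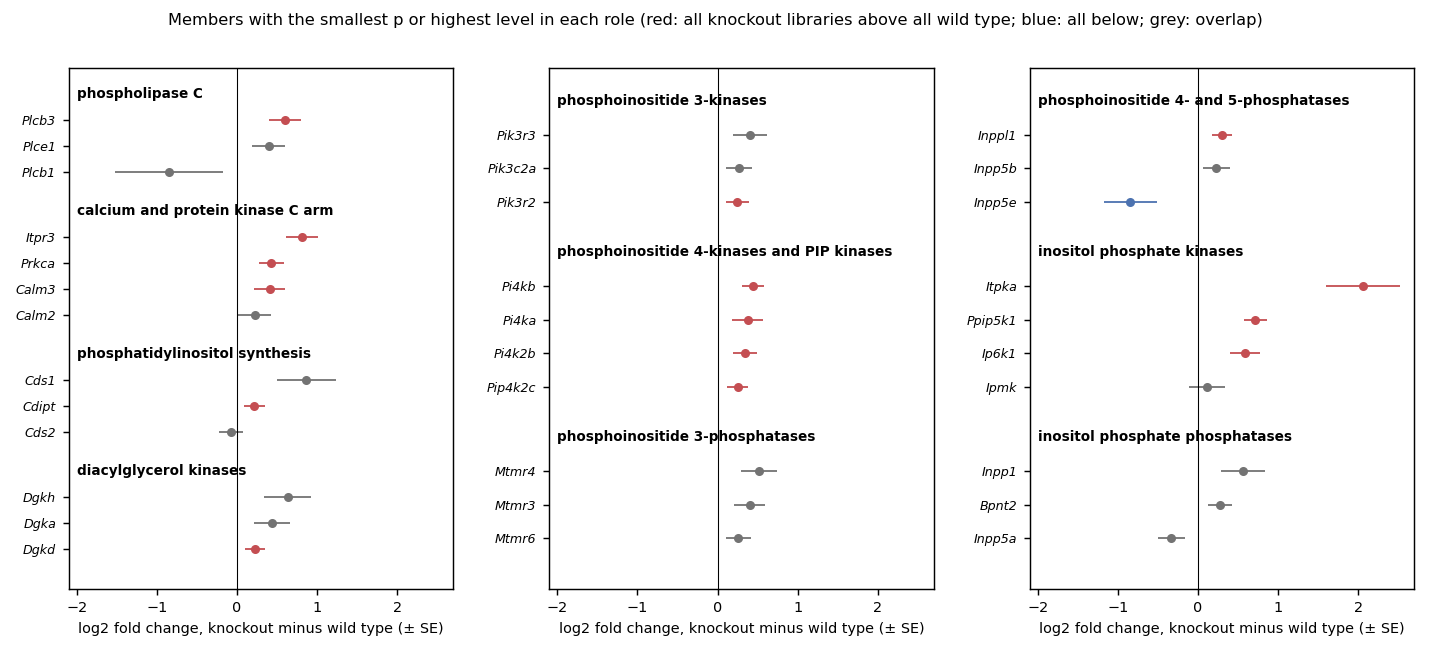
Log2 fold change (knockout minus wild type) ± SE from edgeR of 33 members, the 3 with the smallest p and the 1 with the highest level per kilobase in each role, with red for members whose 3 knockout libraries all lie above the 3 wild type libraries and blue for the reverse. Itpka stands farthest to the right at 2.06, and Plcb1, Cds2, Inpp5e and Inpp5a lie left of 0.

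Among the 3 enzyme classes, kinases had a median log2 fold change of 0.24 with 29 of 38 tested genes above 0, phosphatases 0.14 with 18 of 26, and phospholipases C 0.37 with 6 of 9. The difference between the classes was not tested. Every knockout library was higher than every wild type library in 10 kinases, 1 phosphatase and 1 phospholipase, and the reverse held for 1, 1 and 0. These were 26.3%, 3.85% and 11.1% of the tested genes of each class, and 2.63%, 3.85% and 0% for the reverse. Of all genes, 8.73% were higher in this way and 4.27% lower. The mean log2 level of the kinases, relative to its mean over the 6 libraries, was -0.14, -0.15 and -0.09 in wild type mice, against 0.11, 0.25 and 0.02 in knockout mice, with no overlap between groups. For the phosphatases it was 0.04, -0.08 and -0.11 in wild type mice, against 0.02, 0.18 and -0.05 in knockout mice, and the groups overlapped. For the phospholipases it was -0.56, 0.11 and 0.16 in wild type mice, against 0.03, 0.15 and 0.11 in knockout mice, and wild type library 1 alone stood low. The lack of overlap was not particular to kinases. All members together stood at -0.11, -0.12 and -0.08 in wild type mice, against 0.08, 0.23 and 0.01 in knockout mice. The calcium and protein kinase C arm did not overlap either, nor did genes of the AKT arm outside the map. Phosphatidylinositol synthesis overlapped. Within the kinases, the diacylglycerol kinases overlapped, as did the 4-kinases and PIP kinases. The phospholipase median was the value of Plcd4, a gene under 1 CPM in every library, and ranged from 0.026 to 0.22 when each library was left out in turn.

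**Figure D2:**
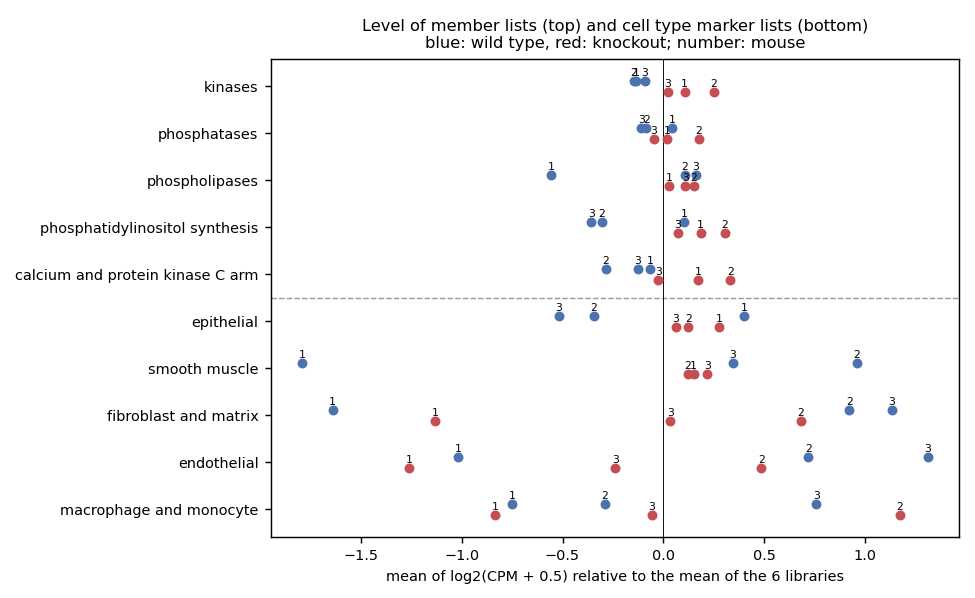
Mean log2(CPM + 0.5) of member classes (above the dashed line) and of cell type marker lists (below), relative to the mean of the 6 libraries, with 1 point per mouse. Levels of the kinases and of the calcium and protein kinase C arm do not overlap between genotypes. Wild type mouse 1 is lowest of the 6 for fibroblast and smooth muscle markers and highest for epithelial markers.

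Epithelial marker levels were read beside those of the members. Of 15 epithelial markers, 13 had a positive log2 fold change, with a median of 0.36 and none at an unadjusted p under 0.05. Their mean log2 level was 0.40, -0.34 and -0.52 in wild type mice, against 0.28, 0.12 and 0.06 in knockout mice. Summed, they stood at 31240, 16460 and 15220 CPM in wild type mice, against 27540, 26840 and 23180 CPM in knockout mice. With that level as a covariate, 11 members were higher and 1 lower at an unadjusted p under 0.05, where 11.6% of all genes passed. The 4 added were Cds1, Inppl1, Pi4ka and Plcd3. Of the 10 endothelial and 10 fibroblast markers all were negative, with medians of -0.90 and -0.60, and of the 9 tested neutrophil markers all were negative, with a median of -1.42. Of these 9, 4 had an unadjusted p under 0.05 (S100a9, Clec4d, S100a8 and Lcn2), and in 3 every knockout library lay below every wild type library. No other marker list had a gene at that threshold. T cell, B cell, enteric neuron and glia and mast cell markers had medians of -0.60, -0.51, -1.02 and -0.66, and smooth muscle markers -0.08. Mast cell markers summed to 29.4 to 63.1 CPM in wild type and 34.5 to 43.3 CPM in knockout libraries. No marker of these lists stood at 0 in all 6 libraries. Macrophage markers, with a median of 0.23, were highest in knockout library 2, at 1523 CPM summed beside 606 to 1287 CPM in the other 5. Their part in the members' values was not tested beyond the epithelial covariate.

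Phospholipase C enzymes open the pathway. Plcb3, the beta isoform that G proteins of the Gq class activate (minus strand of chromosome 19, from 6952325 to 6976470, in GENCODE vM21 of GRCm38), was the member of this class with the highest level per length, at 83.9 CPM per kilobase. It stood at 349, 230 and 273 CPM in wild type mice, against 449, 439 and 404 CPM in knockout mice. Its lowest knockout value exceeded its highest wild type value, and its promoter window held the 5 GC boxes shown above. That window precedes the RefSeq transcript start and lies inside the GENCODE span given here. The means were 284 ± 60.3 CPM (SD, n = 3) and 430 ± 23.5 CPM. The log2 fold change was 0.60 (SE 0.20), with an unadjusted p of 0.0229 and an edgeR adjusted p of 0.696. The unadjusted p of Plcb3 was under 0.05 in 2 of the 6 fits without a library. Plcb3 shares exon bases with Ppp1r14b on the opposite strand, and with no strand setting stated their reads cannot be told apart.

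Plcb1, the isoform best known from brain, had a negative log2 fold change. It read 1.93, 14.1 and 12.5 CPM in wild type mice, against 4.21, 6.54 and 5.10 CPM in knockout mice. Wild type library 1 was the lowest and the other 2 the highest, so the groups overlapped. The value was -0.85 (SE 0.67), and it became -1.37 without wild type library 1 and 0.53 with the epithelial covariate. Plcd3, a delta isoform chosen after its values were seen, read 16.5, 85.2 and 92.4 CPM in wild type mice, against 113, 64.5 and 101 CPM in knockout mice. Only wild type library 1 stood far from the rest. The log2 fold change of Plcd3 was 0.52 (SE 0.59), then 0.03 without that library and 1.70 with the epithelial covariate. Plce1, an isoform that Ras family proteins bind, differed by 0.39 (SE 0.21) with overlapping groups. The other 5 phospholipases (Plcb2, Plcb4, Plcd1, Plcd4 and Plcg1) overlapped between groups and ranged from -0.28 to 0.40. All 9 carried both parts of the catalytic core, PI-PLC-X and PI-PLC-Y, in the deposited annotation.

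The channel that inositol trisphosphate opens, Itpr3 (chromosome 17, 27057304 to 27122223, plus strand), had the lowest unadjusted p of the calcium and protein kinase C arm. Its level was 242, 171 and 189 CPM in wild type mice, against 354, 393 and 307 CPM in knockout mice. The lowest knockout library lay above the highest wild type library. The means were 201 ± 36.8 CPM (SD, n = 3) and 351 ± 43.4 CPM, a log2 fold change of 0.81 (SE 0.20) with an unadjusted p of 0.00541 and an edgeR adjusted p of 0.684. Leaving out each library in turn gave 0.69 to 0.92, and the epithelial covariate gave 0.67. Itpr3 shares exon bases with the antisense gene Itpr3os and with Mir7677. The other 2 channel genes had smaller differences, which were not tested against that of Itpr3. Itpr1 read 15.3, 35.3 and 38.5 CPM in wild type mice, against 21.4, 32.7 and 21.9 CPM in knockout mice, and Itpr2 stayed between 12.5 and 22.1 CPM in all 6. Both overlapped between groups, at log2 fold changes of -0.23 and 0.29, and were chosen after their values were seen.

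Prkca, the conventional protein kinase C alpha that calcium and diacylglycerol activate together, read 84.8, 68.0 and 65.1 CPM in wild type mice, against 101, 102 and 90.6 CPM in knockout mice. The groups did not overlap. Its log2 fold change was 0.43 (SE 0.15), with an unadjusted p of 0.0285 that passed 0.05 in 2 of the 6 fits without a library. Calm3, 1 of 3 genes that encode the same calmodulin protein, read 630, 517 and 519 CPM in wild type mice, against 749, 788 and 671 CPM in knockout mice, also without overlap. This gave 0.41 (SE 0.19), with an unadjusted p of 0.0702. Calm2 had the highest level per length of all members, 420.5 CPM per kilobase, and a log2 fold change of 0.22 with overlapping groups. Prkcb, another conventional isoform, stood under 14 CPM in every library. The arm as a whole had 8 of 10 genes above 0 and a median of 0.31.

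Phosphatidylinositol itself is built from CDP-diacylglycerol, which Cds1 and Cds2 make and Cdipt joins to inositol. Cds1 (chromosome 5, 101765130 to 101823858, plus strand) read 228, 92.8 and 100 CPM in wild type mice, against 261, 283 and 224 CPM in knockout mice. Wild type library 1, the library with the highest epithelial level, overlapped the knockout range, and the other 2 wild type libraries lay far below it. The log2 fold change was 0.87 (SE 0.37) with an unadjusted p of 0.0530. It was 1.36 without wild type library 1 and 0.56 with the epithelial covariate. Cds2 showed no such gap, at 79.7, 93.6 and 85.0 CPM in wild type mice, against 76.8, 93.4 and 74.4 CPM in knockout mice. Cdipt was above every wild type library in all 3 knockout libraries but by little, with means of 101 ± 10.1 CPM and 117 ± 3.09 CPM (SD, n = 3) and a log2 fold change of 0.22.

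Diacylglycerol kinases turn the other product of phospholipase C into phosphatidic acid. Of the 10 genes, all with the DAGK_cat domain in the deposited annotation, 7 were tested, 6 of them above 0, and the median log2 fold change was 0.23. Dgkh read 33.4, 18.7 and 18.5 CPM in wild type mice, against 38.4, 42.4 and 28.7 CPM in knockout mice, and Dgka read 170, 104 and 119 CPM in wild type mice, against 191, 191 and 152 CPM in knockout mice. In both genes wild type library 1 overlapped the knockout range, as in Cds1. Their log2 fold changes were 0.63 (SE 0.29) and 0.44 (SE 0.22), and 0.93 and 0.63 without that library. Dgkd, at 0.23 (SE 0.13), did not overlap between groups. Dgke, at -0.33 (SE 0.28), was lower in all 3 knockout libraries, but by a narrow gap. Its lowest wild type library read 5.425 CPM and its highest knockout library 5.364 CPM. The 3 not tested were Dgkb with 1, 41 and 11 counts in wild type mice, against 4, 5 and 8 in knockout mice, Dgki with 0, 16 and 4 and with 8, 2 and 0, and Dgkk with 3, 2 and 0 in each group. Exact two-sided permutation tests of their CPM gave p = 0.50, 0.70 and 1, where 3 against 3 cannot go below 0.10.

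**Figure D3:**
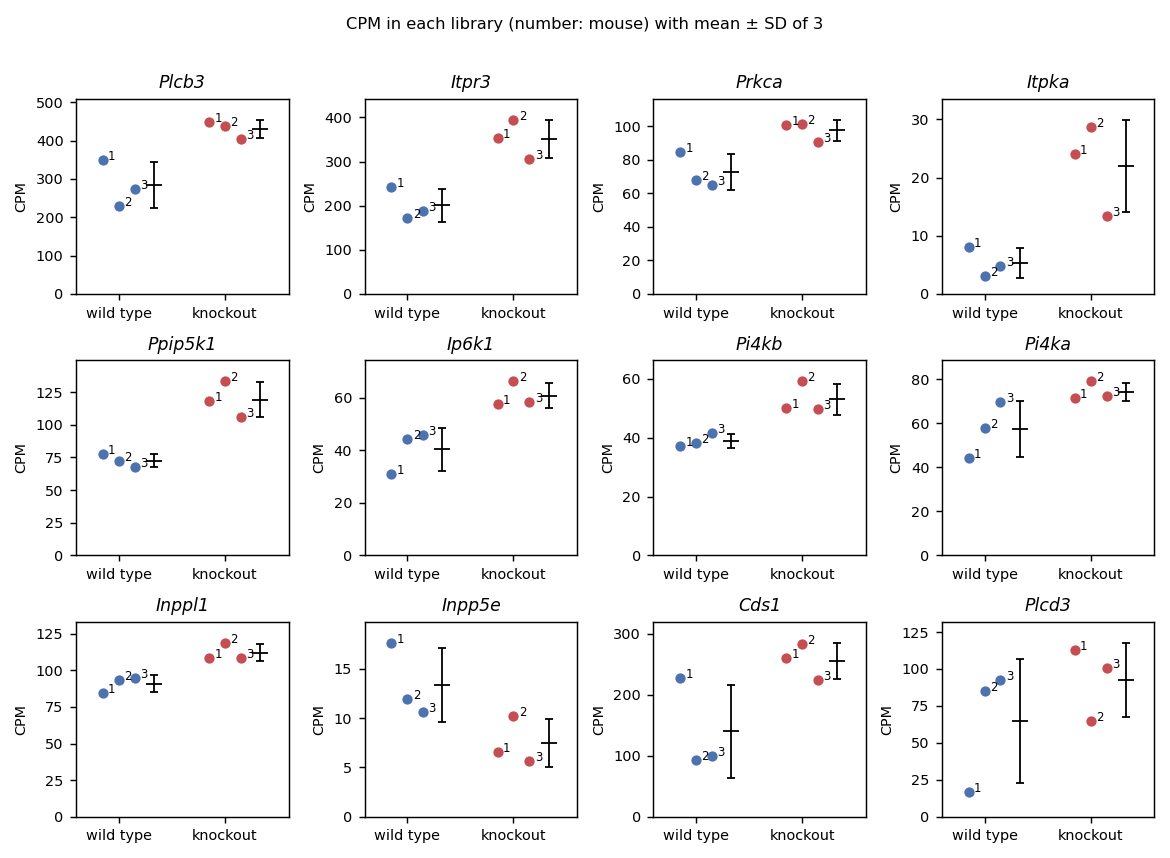
CPM (read counts relative to library size, after TMM scaling) of 12 members in each mouse, with the mean ± SD of 3 per genotype. The genotypes do not overlap in the first 10 panels, while wild type mouse 1 lies near the knockout libraries for Cds1 and far below all others for Plcd3.

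Phosphoinositide 4-kinases make the first phosphorylated lipid of the chain. Pi4kb, the kinase of the Golgi (chromosome 3, 94974731 to 95006843, plus strand), read 37.0, 38.1 and 41.7 CPM in wild type mice, against 50.2, 59.2 and 49.9 CPM in knockout mice. The groups did not overlap, with a log2 fold change of 0.45 (SE 0.14) and an unadjusted p of 0.0164. That p was under 0.05 in 4 of the 6 fits without a library. Pi4ka, the kinase of the plasma membrane, read 44.2, 57.9 and 69.6 CPM in wild type mice, against 71.4, 79.0 and 72.5 CPM in knockout mice, with a gap of under 2 CPM between the groups. Pi4ka gave 0.38 (SE 0.19), and 0.18 without wild type library 1. Pi4k2b and Pip4k2c, a kinase of phosphatidylinositol 5-phosphate, did not overlap either, at 0.34 (SE 0.15) and 0.25 (SE 0.13). The other 7 PIP kinases and 4-kinases overlapped between groups. The median of the 11 was 0.04, and it was -0.02 both with no scaling factors and with upper quartile factors.

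Phosphoinositide 3-kinases and their regulatory subunits were above 0 in 9 of 10 genes with a median of 0.26, and none had an unadjusted p under 0.05. Pik3c2b and Pik3c2g, class II catalytic subunits chosen after their values were seen, had the largest log2 fold changes of the 10, 0.67 (SE 0.41) and 0.67 (SE 0.45), with overlapping groups. Pik3c2b gave 1.18 without wild type library 1. Pik3r2, a regulatory subunit, read 62.5, 50.9 and 60.6 CPM in wild type mice, against 66.6, 75.1 and 64.3 CPM in knockout mice. Its groups did not overlap, with a log2 fold change of 0.24 (SE 0.14). Pik3r3, another regulatory subunit, and Pik3c2a, a class II catalytic subunit, overlapped, at 0.40 (SE 0.22) and 0.27 (SE 0.16). Pik3cd, the catalytic subunit best known from leukocytes, was highest in wild type library 3 and knockout library 2 at 42.4 and 43.9 CPM, the same 2 libraries that led in macrophage markers, and its log2 fold change was 0.02. It was chosen after its values were seen.

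Phosphatases that remove the 3-phosphate include the myotubularins. Of 9 genes 8 were above 0 with a median of 0.20, and the groups of all 9 overlapped. Mtmr4, a myotubularin with a FYVE domain that acts on endosomes, read 70.1, 53.7 and 63.1 CPM in wild type mice, against 87.5, 114 and 66.8 CPM in knockout mice. Knockout library 2 was the highest and knockout library 3 lay within the wild type range, at a log2 fold change of 0.52 (SE 0.22) with an unadjusted p of 0.0549. Mtmr3 and Mtmr6 differed by 0.40 (SE 0.19) and 0.26 (SE 0.15).

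Phosphatases of the 4- and 5-positions were spread around 0, with 7 of 12 above it and a median of 0.03. That median was -0.04 with no scaling factors, with upper quartile factors and with the epithelial covariate, -0.00031 with no filter beyond 10 summed counts, and -0.045 to 0.074 without 1 library. Inpp5e, a 5-phosphatase of the primary cilium (chromosome 2, 26396249 to 26409203, minus strand), read 17.7, 11.9 and 10.6 CPM in wild type mice, against 6.57, 10.2 and 5.63 CPM in knockout mice. The groups came within 1 CPM of each other without overlapping. Its log2 fold change was -0.84 (SE 0.33) with an unadjusted p of 0.0407, which was under 0.05 in 2 of the 6 fits without a library. Inpp5e shares exon bases with Pmpca on the opposite strand. Inppl1, the 5-phosphatase SHIP2, read 84.6, 93.7 and 94.7 CPM in wild type mice, against 109, 119 and 109 CPM in knockout mice, without overlap. The difference was 0.30 (SE 0.13) on the log2 scale with an unadjusted p of 0.0534. Inpp5b overlapped, at 0.23 (SE 0.17).

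Inositol phosphate kinases held the member with the largest log2 fold change, Itpka, and the one with the lowest unadjusted p, Ppip5k1. Itpka (chromosome 2, 119742337 to 119751263, plus strand), a kinase that adds a phosphate to inositol trisphosphate and binds actin, read 8.11, 3.02 and 4.80 CPM in wild type mice, against 24.0, 28.7 and 13.4 CPM in knockout mice. The lowest knockout library stood above the highest wild type library, and the means were 5.31 ± 2.58 CPM and 22 ± 7.87 CPM (SD, n = 3). The log2 fold change was 2.06 (SE 0.46) with an unadjusted p of 0.00317 and an edgeR adjusted p of 0.684, and leaving out each library gave 1.77 to 2.45. Its exons share no bases with another gene in the annotation, and its window was the one with the GAAAGTGAAA match. Its paralogs showed smaller differences, which were not tested against that of Itpka. Itpkb read 13.9, 38.6 and 44.2 CPM in wild type mice, against 26.4, 30.3 and 22.7 CPM in knockout mice, with a log2 fold change of -0.28, and Itpkc differed by 0.32, both with overlapping groups. These paralogs were chosen after their values were seen.

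Ppip5k1, a kinase that makes inositol pyrophosphates (chromosome 2, 121310561 to 121355396, minus strand), read 78.0, 72.3 and 67.6 CPM in wild type mice, against 119, 133 and 106 CPM in knockout mice. The gap between the groups was wider than the range within wild type. The means were 72.6 ± 5.23 CPM and 119 ± 13.6 CPM (SD, n = 3), a log2 fold change of 0.72 (SE 0.15) with an unadjusted p of 0.00203 and an edgeR adjusted p of 0.684. It shares exon bases with Map1a on the opposite strand. Ip6k1, a kinase of the preceding step, read 31.0, 44.2 and 45.9 CPM in wild type mice, against 57.7, 66.2 and 58.1 CPM in knockout mice, without overlap. Its log2 fold change was 0.59 (SE 0.19) with an unadjusted p of 0.0173, which was under 0.05 in 4 of the 6 fits without a library. Ip6k1 shares exon bases with Gm20662 on the same strand. Ipmk, the multikinase with the highest level per length of this list, was at 0.12 (SE 0.22) and was -0.095 with the epithelial covariate and -0.031 without wild type library 3. The list of 10 tested kinases had 6 genes above 0 and a median of 0.16. Ip6k3, not tested, held 1, 1 and 7 counts in wild type mice, against 3, 9 and 4 in knockout mice.

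Inositol phosphate phosphatases return inositol to the pool. The groups of all 5 overlapped. Inpp1, which removes the 1-phosphate, read 21.8, 11.7 and 13.2 CPM in wild type mice, against 23.2, 25.5 and 20.2 CPM in knockout mice, with wild type library 1 inside the knockout range. Inpp1 differed by 0.56 (SE 0.28) on the log2 scale, and 0.84 without that library. Inpp5a, which ends the calcium signal by removing the 5-phosphate from inositol trisphosphate, read 65.3, 73.6 and 50.5 CPM in wild type mice, against 50.2, 50.6 and 49.3 CPM in knockout mice. The knockout values lay close together at the foot of the wild type range, and the log2 fold change was -0.33 (SE 0.17). Bpnt2, a nucleotidase of the inositol monophosphatase family, differed by 0.27 (SE 0.15).

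Ratios between related genes within a library do not depend on the scaling of that library. These pairs were chosen after the values were seen. The ratio of Cds1 to Cds2 counts was 2.86, 0.992 and 1.18 in wild type mice, against 3.40, 3.03 and 3.01 in knockout mice. Ppip5k1 to Ppip5k2 gave 1.99, 1.17 and 1.29 in wild type mice, against 2.39, 2.96 and 2.18 in knockout mice. Ip6k1 to Ip6k2 gave 1.34, 1.90 and 2.58 in wild type mice, against 2.91, 3.32 and 3.12 in knockout mice. In these 3 pairs the groups did not overlap, and wild type library 1 was the nearest to the knockout range for the first and second pair and the farthest from it for the third. Exact two-sided permutation tests gave p = 0.10 for each of these 3, the smallest that 3 against 3 allows, and for pairs chosen this way that p supports nothing. Plcb3 to Plcb1 gave 181, 16.3 and 21.9 in wild type mice, against 107, 67.1 and 78.9 in knockout mice. There wild type library 1 was the highest and the other 2 the lowest, so the groups overlapped. They also overlapped for Plcb3 to Plcb4, Pip5k1b to Pip5k1c and Dgka to Dgke.

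**Figure D4:**
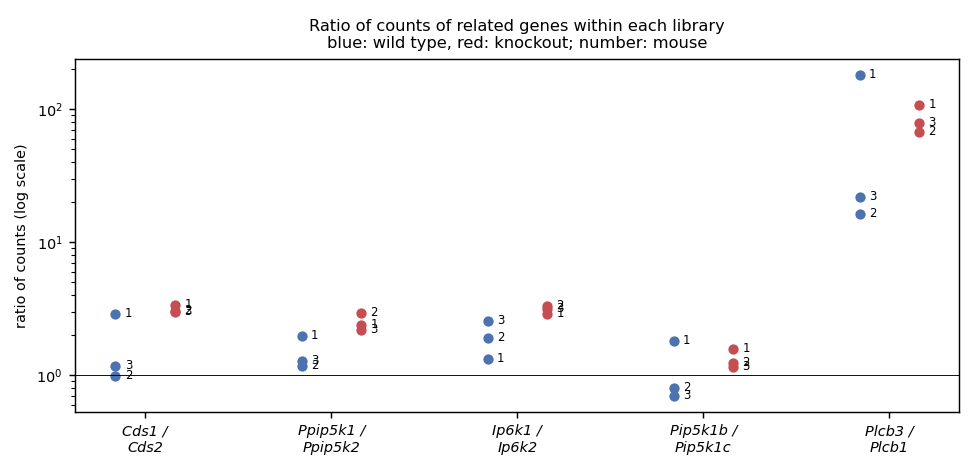
Ratio of the counts of related genes within each library, on a log axis, with 1 point per mouse. Wild type and knockout libraries do not overlap for Cds1 to Cds2, Ppip5k1 to Ppip5k2 and Ip6k1 to Ip6k2, and wild type mouse 1 stands apart from wild type mice 2 and 3 for Plcb3 to Plcb1.

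Genes that act beside the map were read from 4 lists, and none of their genes passed the edgeR test at an adjusted p under 0.05. The counts of each list stand beside 44.2% of all genes above 0 and 6.84% at an unadjusted p under 0.05. In the AKT arm 13 of 16 genes were above 0 and 5 had an unadjusted p under 0.05, all higher in knockout. Tsc2, a brake on mTOR that AKT releases, had a log2 fold change of 0.41 (SE 0.12). Of the 11 G protein and regulator genes coupled to phospholipase C, 7 were above 0 and 1 had an unadjusted p under 0.05. That gene was Gna11, a Gq class alpha subunit that activates Plcb3, at 280, 172 and 225 CPM in wild type mice, against 363, 400 and 302 CPM in knockout mice. Its groups did not overlap, at 0.65 (SE 0.23), and Gng12 overlapped at 0.40.

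In the list of other protein kinase C isoforms and store-operated calcium entry, 8 of 13 genes were above 0 and 1 had an unadjusted p under 0.05. Stim1, the calcium sensor of the endoplasmic reticulum, read 168, 88.5 and 109 CPM in wild type mice, against 181, 229 and 168 CPM in knockout mice, with wild type library 1 reaching the lowest knockout library, at 0.66 (SE 0.27). Prkcz, an atypical isoform, differed by 0.41 (SE 0.19) without overlap. Among genes of phosphatidylinositol transfer and inositol supply 4 of 10 were above 0, and 2 had an unadjusted p under 0.05, 1 in each direction. Pitpnc1, a phosphatidylinositol transfer protein, read 10.7, 21.6 and 18.8 CPM in wild type mice, against 5.53, 9.48 and 7.46 CPM in knockout mice. Every knockout library lay below every wild type library, at -1.19 (SE 0.35) with an unadjusted p of 0.0119, while Pitpnm1 differed by 0.37 (SE 0.14).

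Beyond the annotation that chose them, 57 of the 90 members, 63.3%, also stood in the map of inositol phosphate metabolism, 22 in calcium signalling and 8 in the map of FcεRI signalling. Their loci lay on 19 chromosomes, and 42 shared exon bases with another gene, 35 of them with a gene on the opposite strand. The tested members had a median level of 10.01 CPM per kilobase, beside 6.11 over all genes tested.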

How the data were processed

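Total RNA was extracted with TRIzol and made into TruSeq libraries, 1 per mouse, per the labels. Per the submitters' processing notes, the tools and builds named were TopHat2 version 2.0.0 (an aligner) and mm10. No source used here gives the counting program, the annotation release or how strand was treated. The authors deposited 1 value per feature, read here as an estimated count since 12.4% to 14.8% of features hold a fractional value, beside gene length and pathway annotation. Counts were rounded to whole numbers. Groups came from the sample titles. No library was a copy of another of its group (chi-square per degree of freedom 33.8 to 247).

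Genotypes were compared with the quasi-likelihood test of edgeR 4.0.16 in R 4.3.3, with TMM scaling and filterByExpr (minimum count 10), which kept 16732 genes and dropped 39630. It was fitted on the whole table, with Benjamini-Hochberg adjustment over all genes and a threshold of 0.05. CPM values use TMM-scaled totals, levels in lists use log2(CPM + 0.5), and ± values are SDs. The common biological coefficient of variation was 0.395. DESeq2 1.42.0, limma 3.58.1 (voom), other scalings and filters, a replicate block, an epithelial marker covariate and leaving out each library were alternatives.

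Members and lists were chosen with earlier results of these data known. Named genes were the 3 of smallest p in each role list with at least 1 CPM in 1 group, the 1 of highest level per length, and the 2 of smallest p in each list outside the map. Other members in the text were chosen after their values were seen. Some genes that these choices name are not reported here. Coordinates came from GENCODE vM21.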

Additional observations from a re-analysis of the deposited data

How the results depend on the processing

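Of the 33 members named by rule, 31 kept the sign of their log2 fold change under the alternatives run. Members called at an adjusted p under 0.05 were 0 in both directions under every edgeR alternative and without each library (0 to 0), and 2 higher under DESeq2. Members higher at an unadjusted p under 0.05 numbered 3 to 19 without 1 library and 11 with the epithelial covariate. Members lower numbered 0 to 6, 2 with upper quartile factors and 0 with the replicate block. Members whose knockout libraries all lay higher numbered 14 to 34 without 1 library and 8 with upper quartile factors, and those all lower 2 to 16 and 4. The 8 and 4 stood beside 5.80% higher and 6.63% lower of all genes, and the 16, 18.4% of the members and reached without wild type library 1, beside 24.6%. The cause of these shifts was not tested.

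Medians without 1 library ran from 0.11 to 0.24 for all members, 0.14 to 0.26 for kinases, 0.040 to 0.14 for phosphatases, 0.026 to 0.22 for phospholipases and 0.21 to 0.39 for the calcium arm. They ran from 0.086 to 0.29 for diacylglycerol kinases, 0.038 to 0.32 for inositol phosphate kinases, 0.083 to 0.25 for their phosphatases, 0.14 to 0.26 for synthesis, 0.15 to 0.32 for 3-kinases, 0.12 to 0.34 for 3-phosphatases, -0.045 to 0.074 for 4- and 5-phosphatases and 0.024 to 0.22 for 4-kinases and PIP kinases. The kinase median was 0.14 with no scaling factors, the diacylglycerol kinase median 0.039 with no filter beyond 10 summed counts, and the 4-kinase and PIP kinase median 0.21 with the epithelial covariate. Ipmk turned to -0.095 and Plcb1 to 0.53 with that covariate, and without 1 library Ipmk ran from -0.031 (without wild type library 3) to 0.33.

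With the replicate number as a block, 7 members were higher and 0 lower at an unadjusted p under 0.05, 8.14% beside 5.61% of all genes, and 0 were called. The deviations of libraries with the same number correlated at 0.42, -0.13 and 0.01, so the numbers were not taken as pairs. The 4 members that did not pass the count filter, with 10 to 70 summed counts, were not tested.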
